A study of Mus musculus with 14 samples.

Results

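The transcripts of 10 heat shock genes were followed in mouse 2-cell embryos. The genes were taken by name from a table of read counts for 56923 genes, and each name matched 1 row. They were Hsf1, which encodes the transcription factor of the heat shock response, Hspa1a and Hspa1b, which encode the stress-inducible cytosolic HSP70 proteins, Hspa2, an HSP70 gene best known from the male germ line, Hspa8, the constitutive cytosolic HSP70, Hspa5, the HSP70 of the endoplasmic reticulum (ER), Hsp90aa1 and Hsp90ab1, the cytosolic HSP90 genes, and Hspd1 and Hspe1, the mitochondrial chaperonin and its co-chaperonin. The choice went by gene name, with no threshold on a measured value. Earlier results of these data were known when the members and the gene lists used below were chosen. Their counts beside shares of all genes are therefore descriptions.

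HSP70 proteins bind short hydrophobic stretches of unfolded proteins in a cycle driven by ATP, which J-domain proteins start and nucleotide exchange factors reset. HSP90 acts later in folding on a narrower set of clients, together with co-chaperones. Under stress HSF1 binds heat shock elements, inverted repeats of nGAAn, and activates the inducible genes. In the mouse 2-cell embryo the inducible HSP70 genes are known as some of the earliest products of zygotic genome activation (ZGA), the start of transcription from the embryo's own genome, while the oocyte leaves a large store of HSP90 mRNA.

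The study asked whether lactate is needed for ZGA. Embryos of ICR mice were cultured in mKSOM medium, and RNA-seq libraries of 5 embryos each were made in 7 conditions with 2 libraries per condition. G&N embryos received 5 µM Gne140, an inhibitor of lactate dehydrogenase, and 50 µM NMN, a precursor of NAD+, from 24 h after hCG in medium with 10 mM lactate. G&N-L embryos received the same agents in medium without lactate, so that uptake and production were both blocked. Both were collected at the early (30 h) and the late (54 h) 2-cell stage. Late 2-cell G&N-L + Lac-CoA embryos were G&N-L embryos injected as zygotes with 1 mM Lac-CoA, the lactyl donor for histone lactylation. No injection is described for the G&N and G&N-L embryos. In the comparisons of Lac-CoA embryos with them, Lac-CoA and injection therefore cannot be told apart. Late 2-cell H3K18R embryos were injected as zygotes with mRNAs for histone H3 mutated at lysine 18 to arginine, and the libraries labelled WT are described as the wild-type H3 counterpart. No use of Gne140 or NMN and no lactate level is given for these embryos. Orders over all conditions therefore also hold the difference between this series and the G&N series, whose part was not tested.

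The groups were taken from the sample titles. The deposited treatment labels of the early libraries differ from these: they give early G&N embryos Gne140 alone and early G&N-L embryos both agents, with no word on lactate. Read by those labels, the early groups would differ in NMN, so whether they differ in lactate, NMN or both cannot be told from the labels, and the early comparison, both stage comparisons and the difference between the stages rest on the titles. The columns of the mutant are headed K18A, while the titles read H3K18R. The H3.1 gene H3c1, looked up as a check of these labels, was counted 43643 and 83390 times in H3K18R, 4 and 3 times under the label WT, and 0 to 66 times in the other 10 libraries. What was injected under the label WT cannot be read from the counts. The labels speak of 3 replicates where the table holds 2, and do not say whether the libraries came from separate cultures, so the p-values measure the spread between these libraries only. With 2 libraries on each side the smallest two-sided p of an exact permutation test is 0.333, so the tests used were edgeR's quasi-likelihood tests fitted across all genes, with Benjamini-Hochberg adjustment. Library totals were 20350427 to 61275465 counts. A count of 0 in a library allows up to 3 counts, or 0.0490 to 0.147 CPM (counts scaled to the library size), which covers counting error only. In whole-embryo RNA, fewer cells of a type and less RNA per cell cannot be told apart. Cumulus cell markers summed to 7.43 to 42.8 CPM in every library, with 2 of 15 (Inhba and Amh) at 0 throughout. All 14 late 2-cell markers and all 15 oocyte and maternal markers had counts in at least 1 library. The late 2-cell markers summed to 220 to 342 CPM in early and 2204 to 3427 CPM in late libraries.

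Together the 10 genes took 0.283 to 0.440% of the counts of the early libraries and 0.110 to 0.189% of those of the late libraries, and Hsp90aa1 alone was most of the early share. Per kilobase of the canonical transcript, Hsp90aa1 was the highest of the 10 in early G&N embryos at 1074 ± 170.3 CPM per kb (SD, n = 2). Hspe1 followed at 214.5 ± 12.9 and Hsp90ab1 at 143.5 ± 45.9 CPM per kb in the same libraries. In late G&N embryos Hspe1 at 177.5 ± 14.1 and Hsp90aa1 at 167 ± 13.3 CPM per kb were within their spread of each other. Hspa2 stood at 0.721 ± 0.353 CPM per kb in early and 34.9 ± 6.54 in late G&N embryos, places 8 and 5 in the order of the 10. Hspa1b and Hspa1a were the 2 lowest genes in all 7 conditions.

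**Figure D1:**
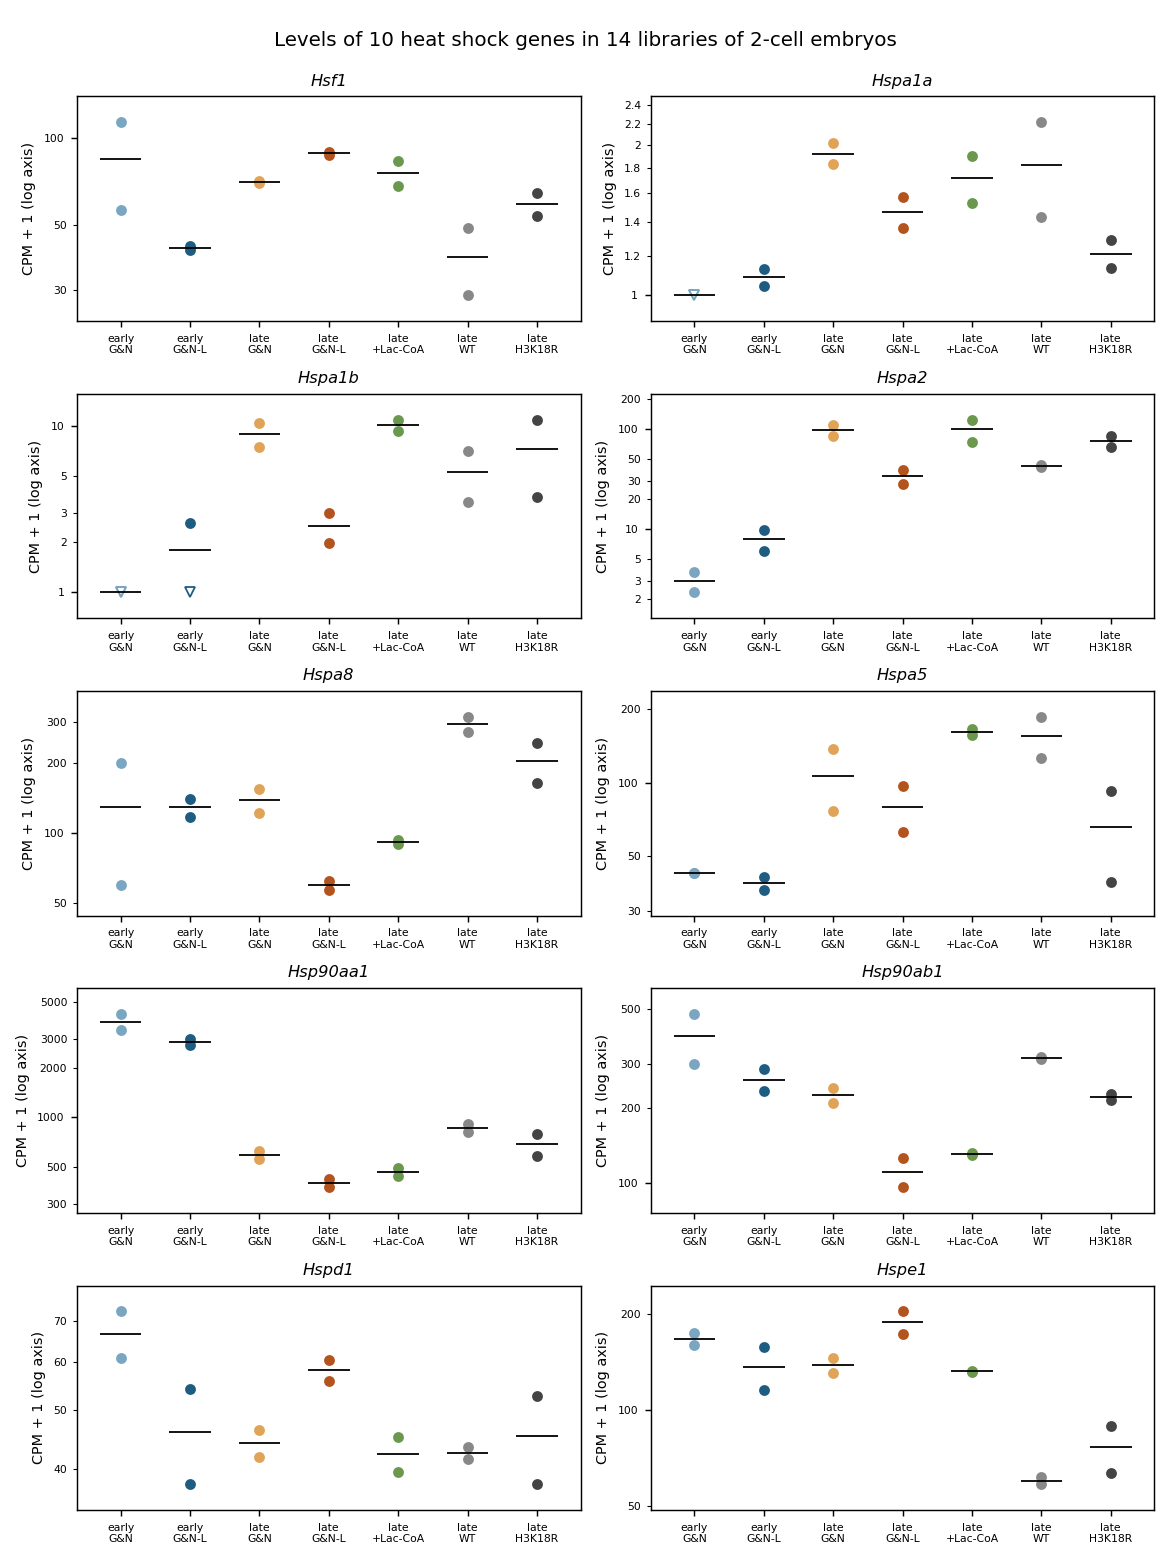
Level of each of the 10 genes in each of the 14 libraries, as CPM + 1 on a log axis that differs between panels. Points are libraries, open triangles are libraries with a count of 0, and horizontal bars are the means of the 2 libraries of a condition. Hsp90aa1 is at 2726 CPM or more in all early and at 913.2 CPM or less in all late libraries, while Hspa2 is at 8.79 CPM or less in all early and at 27.4 CPM or more in all late libraries.

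From the early to the late 2-cell stage the genes went in different directions. In G&N embryos Hspa2 rose and Hsp90aa1 fell, and Hspa1b, without a count in the early libraries, was called higher. In G&N-L embryos Hspa2 and Hsf1 rose, while Hsp90aa1, Hsp90ab1 and Hspa8 fell. That is 3 of 10 members past an adjusted p of 0.05 in G&N embryos, where 13.7% of 19443 genes were called, and 5 of 10 in G&N-L embryos, where 11.8% of 18604 genes were called (edgeR). By direction, the background in G&N embryos was 8.18% higher and 5.47% lower, and in G&N-L embryos 5.97% higher and 5.87% lower. DESeq2 called 6 of 10 in each, adding Hspa5 in both and Hspa1a and Hsp90ab1 in G&N embryos, against 30.5% and 27.9% of all genes. All members passed the filter on low counts in both comparisons, Hspa1a and Hspa1b in G&N embryos only through the late libraries. The call of Hspa1b with either tool and the DESeq2 call of Hspa1a there are therefore no support in themselves. Of the other 8 members, edgeR called 2 there. Among genes with at least 10 counts in every library, edgeR called 3 members in G&N and 6 in G&N-L embryos, against 25.8% and 23.4% of the genes tested. With either late G&N library left out the G&N count was 0 of 10, while 220 and 283 genes in all were still called. With any 1 of the 4 G&N-L libraries left out, 1 of 10 was called, Hsp90aa1 each time. On library totals the G&N-L call of Hspa8 was lost (edgeR adjusted p = 0.0686). The median gene rose by 0.08 (log2) in G&N and 0.15 in G&N-L embryos on the TMM scale and by 0.46 and 0.51 on library totals, and Hsf1 and Hspe1 in G&N embryos have opposite signs on these scales. Relative to the median gene, Hsp90aa1 was at -2.83 in G&N and -3.05 in G&N-L embryos and Hspa8 at -1.34 and Hsp90ab1 at -1.44 in G&N-L embryos on both scales, and Hspa2 at 5.41 and 5.45 in G&N and at 2.04 and 2.05 in G&N-L embryos. The oocyte and maternal markers moved with stage too, from 23596 and 25172 CPM in sum in early to 14648 and 15140 CPM in late G&N libraries, with 7 of 15 past the threshold, all lower. In G&N-L libraries they went from 21004 and 21366 to 18937 and 21197 CPM, with 5 of 15 past it, all lower. Their part in the members' changes was not tested.

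Without lactate, no member passed an adjusted p of 0.05 at either stage. At the late 2-cell stage Hspa1a, Hspa1b, Hspa2, Hspa8, Hsp90ab1 and Hsp90aa1 stood lower in both G&N-L libraries than in both G&N libraries, and Hspe1, Hspd1 and Hsf1 stood higher in both. With edgeR 0.0% of 19481 genes were called. At an unadjusted p under 0.05, 5 of 10 members were lower and 0 higher, against 7.65% of all genes lower and 4.32% higher. DESeq2 called 3 of 10, Hspa2, Hspa8 and Hsp90ab1, all lower, against 3.19% of all genes called lower and 1.61% called higher. The groups did not overlap for 9 of 10 members, and did not overlap for 43.5% of all genes. The median log2 change was -0.72 over the 10 members and -0.02 over all genes tested. At the early stage, where the groups rest on the titles, 8 of 10 members could be tested and none of 17343 genes was called by edgeR (0.0%), with 2 of 8 members at an unadjusted p under 0.05, Hspa2 higher and Hsf1 lower, against 4.52% of all genes. DESeq2 called 38 genes there (0.219%) and none of the members. The early groups did not overlap for 7 of 8 members, 6 of them lower and Hspa2 higher without lactate, and did not overlap for 32.7% of all genes. Maternal markers summed to 18937 and 21197 CPM in late G&N-L against 14648 and 15140 CPM in late G&N libraries, with 11 of 15 higher and 3 at an unadjusted p under 0.05. Cumulus markers summed to 16.7 and 31.8 CPM in late G&N-L against 26.1 and 42.8 CPM in late G&N libraries, with 5 of 7 tested lower, 2 of them at an unadjusted p under 0.05, and a median log2 change of -1.23. Late 2-cell markers summed to 2204 and 2479 CPM against 2227 and 2389 CPM, with 8 of 14 lower, 3 of them at an unadjusted p under 0.05, and a median of -0.30. The part of these markers in the members' values was not tested.

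With Lac-CoA, Hspa2, Hspa1b, Hspa5, Hspa8, Hsp90aa1 and Hsp90ab1 stood higher, and Hspe1, Hspd1 and Hsf1 lower, in both libraries than in both late G&N-L libraries. edgeR called 0.0% of 19610 genes, and 4 members were higher and 1 lower at an unadjusted p under 0.05, against 6.92% and 6.38% of all genes. DESeq2 called 3 of 10 members, Hspa2, Hspa5 and Hspa1b, all higher, against 3.5% of all genes called higher. Groups did not overlap for 9 of 10 members, and for 46.8% of all genes. This comparison, the late one on lactate and the stage comparison in G&N-L embryos share the late G&N-L libraries, so a low or high value there enters all of them. Against late G&N embryos, edgeR called 0.0% of 19613 genes, with 1 of 10 members (Hsp90ab1, lower) at an unadjusted p under 0.05 against 4.1% of all genes lower, and DESeq2 called 2.43% of all genes and none of the members. The late 2-cell markers summed to 3417 and 3427 CPM in the Lac-CoA libraries, above all other libraries, and the maternal markers to 16271 and 11524 CPM. Their part in the members' values was not tested.

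In H3K18R against the libraries labelled WT, edgeR called 1 gene of 17704 (0.00565%), H3c1, and 9 of 10 members passed the filter. At an unadjusted p under 0.05 Hspa2 was higher and Hspa5 lower, 2 of 9 against 6.44% of all genes. DESeq2 called 120 genes (0.678%) and none of the members. The maternal markers summed to 3895 and 3960 CPM in the libraries labelled WT and to 4243 and 9098 CPM in H3K18R libraries, the second H3K18R library being the higher one. Cumulus markers, 4 of which were tested and all 4 higher, summed to 7.43 and 8.47 CPM in the libraries labelled WT and 31.1 and 34.0 CPM in H3K18R libraries. The part of either in the members' values was not tested.

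**Figure D2:**
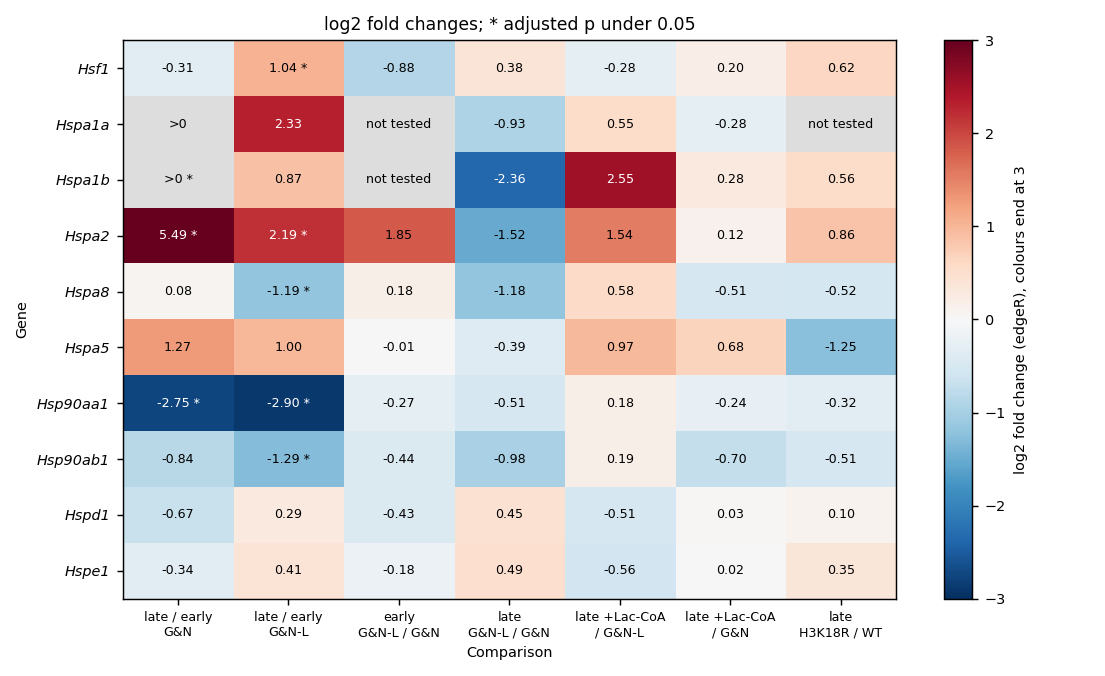
Fitted log2 fold changes of the 10 genes (rows) in 7 comparisons (columns; the first named group over the second), with an asterisk where the adjusted p of edgeR was under 0.05. Grey fields were not tested, or have no finite fold because every library of the second group had a count of 0. Asterisks appear in the 2 stage columns only, 3 for G&N and 5 for G&N-L embryos.

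Hsf1 lies on mouse chromosome 15 (GRCm39, chr15:76361558-76388138, plus strand). Its mRNA stood at 112.3 and 55.3 CPM in the early G&N libraries, 40.3 and 41.3 CPM in early G&N-L, 68.7 and 70.3 CPM in late G&N, and 88.8 and 86.3 CPM in late G&N-L. It stood at 82.2 and 67.3 CPM with Lac-CoA, 48.1 and 27.7 CPM in the libraries labelled WT and 52.9 and 63.5 CPM in H3K18R. The first early G&N library was the highest of the 14 and the groups with and without lactate did not overlap at either stage, early G&N-L being below G&N and late G&N-L above it. Between the stages Hsf1 rose in G&N-L embryos by 1.04 ± 0.20 (log2 ± SE, edgeR adjusted p = 0.0344). In G&N embryos the change was -0.31 ± 0.35 (edgeR adjusted p = 0.610), and without the first early G&N library it was 0.27. The change without lactate was -0.88 ± 0.33 early (edgeR adjusted p = 0.9999) and 0.38 ± 0.22 late (edgeR adjusted p = 0.625).

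The inducible genes Hspa1a (chr17:35188166-35191132, minus strand) and Hspa1b (chr17:35175412-35178214, minus strand) lie next to each other and have near-identical coding sequences. Of all 50-base windows of the transcripts, 58.8% of those of Hspa1a were found in Hspa1b and 62.3% of those of Hspa1b in Hspa1a, while none of either was found in Hspa2 or Hspa8. How reads that match both were counted is not given in the sources used here, so the split between the pair is uncertain. Their promoters are shown because the inducible class is known for its heat shock elements. The 250 bases before the starts differ at 3 positions, and capitals mark the heat shock element letters GAANNTTC, which begin 104 bases before both starts. Hspa1a lies at chr17:35191133-35191382 and Hspa1b at chr17:35178215-35178464, both read from the minus strand of GRCm39.
Hspa1a: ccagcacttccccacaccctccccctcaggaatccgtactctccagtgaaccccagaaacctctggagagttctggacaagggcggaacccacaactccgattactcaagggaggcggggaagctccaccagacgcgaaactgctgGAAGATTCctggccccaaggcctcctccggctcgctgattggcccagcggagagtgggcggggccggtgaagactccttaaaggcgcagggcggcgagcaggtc
Hspa1b: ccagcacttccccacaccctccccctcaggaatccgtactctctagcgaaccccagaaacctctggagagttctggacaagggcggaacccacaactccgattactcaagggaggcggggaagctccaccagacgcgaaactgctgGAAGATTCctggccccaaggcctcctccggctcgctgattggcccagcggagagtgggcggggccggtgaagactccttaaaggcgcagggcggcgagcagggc

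GAANNTTC was found in 6.33% and TTCNNGAA, the other phase of the repeat, in 6.79% of the 250-base windows of 21770 protein-coding genes, and 1 or both in 12.3%. Both motifs read the same on either strand. Among the 10 members, 4 held one, Hspa1a, Hspa1b, Hspd1 and Hspe1, and Hspd1 and Hspe1 share theirs. No letters of either motif were in the windows of the other 6, which says nothing on whether HSF1 acts there. CCAAT was found in 36.5% of all windows and in 7 members, and GGGCGG in 36.3% of all windows and in all 10 members, both strands searched. TATAAA, by exact letters, was found in 11.9% of all windows and in no member. Other forms of the TATA box were not searched, and the Hspa5 window holds the letters TATATAAG.

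Hspa1b had counts of 0 and 0 in early G&N, 64 and 0 in early G&N-L, 343 and 283 in late G&N, and 77 and 38 in late G&N-L libraries. With Lac-CoA it had 431 and 361, in the libraries labelled WT 57 and 196, and in H3K18R 205 and 62. So Hspa1b was without a count in 3 of 4 early libraries and counted in all 10 late libraries, and the first early G&N-L library, with 64 counts, stands apart from the other early ones. In CPM, the late G&N mean was 7.94 ± 2.04, the G&N-L mean 1.497 ± 0.715 and the Lac-CoA mean 9.12 ± 1.12 (SD, n = 2). Hspa1b stood at least 95.2-fold higher in late than in early G&N embryos, against the floor of 3 counts per library. Its edgeR adjusted p of 0.0185 comes from a test that it entered only through the late libraries and supports nothing further, and it was 0.0859 and 0.0718 without the first and without the second late G&N library. In G&N-L embryos the stage change was 0.87 ± 2.07 (edgeR adjusted p = 0.843), and without the early library that holds the 64 counts it was 8.61, a fitted value against a count of 0 that is no bound on the fold. Late G&N-L stood 5.31-fold below late G&N in CPM, with a fitted change of -2.36 ± 0.77 (edgeR adjusted p = 0.340). Lac-CoA against G&N-L gave 2.55 ± 0.74 (edgeR adjusted p = 0.305; DESeq2 adjusted p = 0.0439). H3K18R against the label WT gave 0.56 ± 0.94, and the libraries of the 2 groups overlapped.

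Hspa1a had fewer counts in nearly all libraries, 0 and 0 in early G&N, 5 and 1 in early G&N-L, 37 and 36 in late G&N, and 14 and 22 in late G&N-L. With Lac-CoA it had 23 and 39, in the libraries labelled WT 28 and 14, and in H3K18R 6 and 3. The early libraries were all below the late libraries of the G&N series. Hspa1a stood at least 12.1-fold higher in late than in early G&N embryos. Its edgeR adjusted p of 0.0637 comes from a test that it entered only through the late libraries. In the late lactate comparison it was -0.93 ± 1.43 and with Lac-CoA 0.55 ± 1.46, both far within the error. Adding the counts of the pair gave 380 and 319 in late G&N, 91 and 60 in late G&N-L, and 454 and 400 with Lac-CoA, of which Hspa1a took 5.1 to 36.7%. The order of these 3 conditions for the sum is the order for Hspa1b alone.

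Hspa2 (chr12:76450151-76453712, plus strand) had the highest r with Hspa1b of all pairs of members, 0.90 over the 14 libraries on log2(CPM + 1), where the libraries of a condition and the stages are shared by both. It stood at 1.31 and 2.71 CPM in early G&N, 8.79 and 5.08 CPM in early G&N-L, 84.5 and 110.3 CPM in late G&N, and 27.4 and 38.2 CPM in late G&N-L. With Lac-CoA it stood at 74.1 and 123.7 CPM, in the libraries labelled WT at 43.0 and 40.5 CPM, and in H3K18R at 84.7 and 66.0 CPM. No early library reached any late one, and late G&N-L was the lowest of the 5 late conditions without overlap with the next, the libraries labelled WT. Hspa2 rose from early to late by 5.49 ± 0.58 (log2 ± SE) in G&N (edgeR adjusted p = 0.00891) and by 2.19 ± 0.42 in G&N-L embryos (edgeR adjusted p = 0.0358). An antisense lncRNA gene, 4930426I24Rik, overlaps 1057 of its 3443 exon bases and had at most 61 counts in a library, against 25213 counts of Hspa2 over all libraries.

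Between G&N-L and G&N embryos Hspa2 differed in opposite directions at the 2 stages, where the early groups rest on the titles and may differ in NMN. In early embryos Hspa2 was 3.45-fold higher in G&N-L than in G&N, from low levels, with a change of 1.85 ± 0.70 (edgeR adjusted p = 0.9999), which was 1.36 without the first and 2.60 without the second early G&N library. In late embryos it was 2.97-fold lower, -1.52 ± 0.28 (edgeR adjusted p = 0.311; DESeq2 adjusted p = 0.000982). The late value was between -1.77 and -1.28 with each library left out. With Lac-CoA it was 1.54 ± 0.34 against G&N-L (edgeR adjusted p = 0.294; DESeq2 adjusted p = 0.00226) and 0.12 ± 0.33 against G&N (edgeR adjusted p = 1.0), with overlapping libraries in the latter. In H3K18R it was 0.86 ± 0.31 against the label WT (edgeR adjusted p = 0.735). The late minus the early change without lactate was -3.34 ± 0.66, for which edgeR gave an adjusted p of 0.500, with 0.0% of 22287 genes called, while DESeq2 gave 0.000813 and called 1.07% of all genes, among the members Hspa2 and Hspa1b. Of the 10 members 5 had an unadjusted p under 0.05 for this difference with edgeR, against 7.55% of all genes, namely Hspa2, Hspa1b, Hsf1, Hspd1 and Hspe1.

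Hspa8 (chr9:40711630-40731039, plus strand), the constitutive HSP70 of the cytosol, differed widely between the early G&N libraries, at 197.8 and 58.5 CPM. It stood at 115.9 and 139.2 CPM in early G&N-L, 121 and 153.8 CPM in late G&N, and 60.8 and 55.9 CPM in late G&N-L. With Lac-CoA it stood at 92.3 and 88.4 CPM, in the libraries labelled WT at 271.1 and 314.4 CPM and in H3K18R at 243.3 and 162.8 CPM. The libraries labelled WT were the highest and late G&N-L the lowest of the 7 conditions by their means, and late G&N-L, Lac-CoA and G&N libraries did not overlap with each other. Hspa8 fell by 1.19 ± 0.22 (log2) from early to late in G&N-L embryos (edgeR adjusted p = 0.0311), a call that library totals (0.0686) and the replicate block (0.0651) did not give, while the G&N change of 0.08 ± 0.52 ranged from -0.47 to 1.17 with each library left out. Late G&N-L against G&N gave -1.18 ± 0.23 (edgeR adjusted p = 0.312; DESeq2 adjusted p = 0.00257), Lac-CoA against G&N-L 0.58 ± 0.21 (edgeR adjusted p = 0.332) and Lac-CoA against G&N -0.51 ± 0.24 (edgeR adjusted p = 0.688).

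Hspa5 (chr2:34661982-34668880, plus strand) is induced by the unfolded protein response through ER stress elements. A stretch of 30 bases, chr2:34662032-34662061 on the plus strand of GRCm39, is shown for the element that sets it apart from the other members, in capitals. It begins 67 bases before the canonical start and lies within the first exon of other transcripts of the gene.
Hspa5: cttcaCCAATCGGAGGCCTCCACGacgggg

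The ER stress element occurred in 0.115% of the 21770 windows, either strand, and in no other member. It includes a CCAAT box, so the counts of both motifs overlap. Hspa5 stood at 41.7 and 41.7 CPM in early G&N, 35.5 and 40.3 CPM in early G&N-L, 136.7 and 75.3 CPM in late G&N, and 96.1 and 61.6 CPM in late G&N-L. With Lac-CoA it stood at 164.6 and 155.8 CPM, in the libraries labelled WT at 124.8 and 184.7 CPM and in H3K18R at 38.4 and 91.3 CPM. The early libraries were alike, the late ones were spread, and those of late G&N overlapped those without lactate. Late against early gave 1.27 ± 0.38 in G&N (edgeR adjusted p = 0.0749) and 0.996 ± 0.300 in G&N-L embryos (edgeR adjusted p = 0.0820), both past the threshold with DESeq2. Lac-CoA against G&N-L gave 0.97 ± 0.28 (edgeR adjusted p = 0.305; DESeq2 adjusted p = 0.029). H3K18R against the label WT gave -1.25 ± 0.49 (edgeR adjusted p = 0.762), and -0.77 and -2.01 without the first and without the second H3K18R library.

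Hsp90aa1 (chr12:110656842-110669166, minus strand) was the member with the largest drop. It stood at 4216 and 3366 CPM in early G&N and 2726 and 2991 CPM in early G&N-L, and at 556.5 and 623.1 CPM in late G&N and 378.3 and 421.8 CPM in late G&N-L. With Lac-CoA it stood at 439.1 and 496.5 CPM, in the libraries labelled WT at 913.2 and 811.7 CPM, and in H3K18R at 796.4 and 584.7 CPM. The lowest early library was above all late ones. Hsp90aa1 fell by 2.75 ± 0.24 (log2) in G&N (edgeR adjusted p = 0.00655) and by 2.90 ± 0.16 in G&N-L embryos (edgeR adjusted p = 0.00489). Without lactate it was -0.27 ± 0.18 early (edgeR adjusted p = 0.9999) and -0.51 ± 0.17 late (edgeR adjusted p = 0.344). The late libraries with Lac-CoA lay between the other 2 without overlap, 0.18 ± 0.16 above G&N-L (edgeR adjusted p = 0.780) and -0.24 ± 0.20 from G&N (edgeR adjusted p = 0.926).

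Hsp90ab1 (chr17:45878552-45891949, minus strand), the constitutive partner, stood at 475.5 and 300.0 CPM in early G&N, 285.2 and 234.1 CPM in early G&N-L, 240.1 and 209.6 CPM in late G&N, and 95.7 and 125.4 CPM in late G&N-L. With Lac-CoA it stood at 128.9 and 130.8 CPM, in the libraries labelled WT at 321 and 313.3 CPM, and in H3K18R at 228 and 215.6 CPM. Late G&N-L and Lac-CoA libraries were the lowest 4 of the 14. Hsp90ab1 fell by 1.29 ± 0.20 (log2) from early to late in G&N-L embryos (edgeR adjusted p = 0.0226) and the change in G&N was -0.84 ± 0.27 (edgeR adjusted p = 0.0868). Late G&N-L against G&N gave -0.98 ± 0.24 (edgeR adjusted p = 0.322; DESeq2 adjusted p = 0.0148). Lac-CoA gave 0.19 ± 0.22 against G&N-L (edgeR adjusted p = 0.844) and -0.70 ± 0.22 against G&N (edgeR adjusted p = 0.500). Among the lactate comparisons at the late stage, Hsp90ab1 with Lac-CoA was thus nearer to G&N-L, and Hspa2 and Hspa1b with Lac-CoA nearer to G&N, as values and without a test of that difference. The ratio of Hsp90aa1 to Hsp90ab1 counts was 8.87 to 12.8 in the early and 2.32 to 3.95 in the late libraries.

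**Figure D3:**
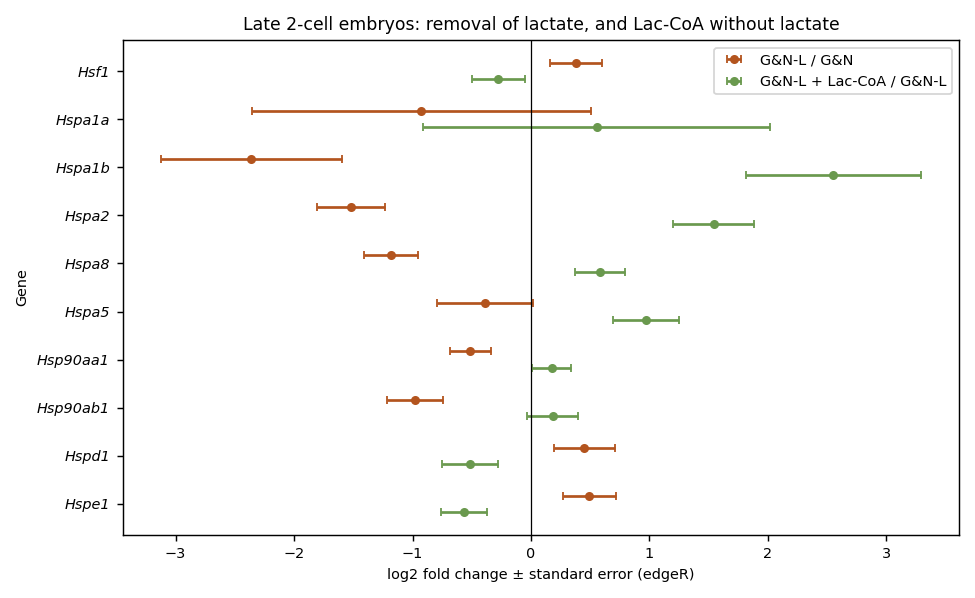
Fitted log2 fold changes (points) with their standard errors (bars) in late 2-cell embryos, for G&N-L against G&N and for G&N-L + Lac-CoA against G&N-L. The 2 comparisons share the G&N-L libraries, so that opposite signs are partly built in; Hspa1b is at -2.36 and 2.55 and Hspa2 at -1.52 and 1.54, and no point passed an adjusted p of 0.05 with edgeR.

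Hspd1 (chr1:55116989-55171038, minus strand) and Hspe1 (chr1:55127260-55130476, plus strand) encode the chaperonin barrel and its lid in mitochondria and are transcribed away from each other. The canonical starts lie 107 bases apart (chr1:55127184-55127290), and the stretch of 30 bases with the heat shock elements in both phases, chr1:55127212-55127241 on the plus strand of GRCm39, is shown because it belongs to both genes. Capitals mark the elements, and exons of other Hspd1 transcripts reach into it.
Hspd1 and Hspe1: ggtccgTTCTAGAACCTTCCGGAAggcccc

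A run of 3 alternating units, either strand, was found there and in 0.349% of all windows, and it contains the 2-unit motifs counted above. Hspd1 stood at 71.5 and 59.7 CPM in early G&N, 53.2 and 36.8 CPM in early G&N-L, 45.3 and 40.8 CPM in late G&N, and 54.7 and 59.4 CPM in late G&N-L. With Lac-CoA it stood at 38.5 and 44.1 CPM, in the libraries labelled WT at 40.5 and 42.4 CPM and in H3K18R at 51.7 and 36.8 CPM. It was the member that varied least, with all libraries between 36.8 and 71.5 CPM. No comparison of Hspd1 passed the threshold, the stage changes being -0.67 ± 0.28 in G&N (edgeR adjusted p = 0.160) and 0.29 ± 0.25 in G&N-L embryos (edgeR adjusted p = 0.513).

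Hspe1 stood at 173.1 and 158.9 CPM in early G&N, 156.3 and 114.9 CPM in early G&N-L, 145.1 and 129.6 CPM in late G&N, and 202.7 and 171.7 CPM in late G&N-L. With Lac-CoA it stood at 131.8 and 130.6 CPM, in the libraries labelled WT at 57.5 and 60.6 CPM and in H3K18R at 62.6 and 88.2 CPM. The 4 H3K18R and labelled WT libraries were lower than the other 10, and late G&N-L had the highest mean, with overlap with early G&N. Maternal markers summed to 3895 to 9098 CPM in those 4 libraries and to 11524 CPM or more in the other late ones. The part of this difference between the series was not tested. Late G&N-L against G&N gave 0.49 ± 0.22 (edgeR adjusted p = 0.484), Lac-CoA against G&N-L -0.56 ± 0.19 (edgeR adjusted p = 0.312) and H3K18R against the label WT 0.35 ± 0.31 (edgeR adjusted p = 0.923). Hspe1 to Hspd1 count ratios were 1.21 to 2.40 in those 4 libraries and 2.42 to 3.71 in the others, and r of the pair was 0.52 over the 14 libraries. The exons of both genes share 143 bases on opposite strands in GENCODE vM39, and with the strand setting not given, reads from these bases cannot be told apart.

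The other genes of the chaperone network were taken from 9 lists with 111 different symbols, of which 99 were tested between the stages in G&N and 94 in G&N-L embryos. In G&N embryos 10 rose and 11 fell (21.2% past an adjusted p of 0.05 with edgeR, against 13.7% of all genes). In G&N-L embryos 6 rose and 14 fell (21.3%, against 11.8%). The share of all genes called depends on the filter on low counts. Among genes with at least 10 counts in every library it was 25.8% in G&N and 23.4% in G&N-L embryos. The lists were not counted at that filter, so whether they exceed other well-counted genes was not tested. Hsbp1l1 in both, Herpud1 in G&N and Unc45a in G&N-L embryos are among those counted as risen but had no count in the early libraries of that comparison, so they entered its test only through the late libraries. Of the J-domain proteins, which bring clients to HSP70 and are the longest of the lists, 7 of 35 fell in G&N embryos, against 5.47% of all genes, and 9 of 35 in G&N-L embryos, against 5.87%. In each, 2 of 35 rose, against 8.18% of all genes in G&N and 5.97% in G&N-L embryos. Dnajb4 fell by 3.24 ± 0.27 (log2) in G&N and 3.48 ± 0.26 in G&N-L embryos (edgeR adjusted p = 0.00617 and 0.00588), from 2725 ± 188.8 to 304.8 ± 3.86 CPM in G&N embryos (SD, n = 2). Dnajb9, an ER J-domain protein and partner of Hspa5, rose by 4.83 ± 0.32 in G&N and 3.66 ± 0.28 in G&N-L embryos (edgeR adjusted p = 0.00598 and 0.0060). Dnajb14 rose by 5.07 ± 0.35 in G&N embryos (edgeR adjusted p = 0.00598).

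Over all genes tested between the stages, edgeR called 8.18% higher and 5.47% lower in G&N embryos. In G&N-L embryos it called 5.97% higher and 5.87% lower. These are the shares for the list counts here and in the next paragraph. Of the HSP70 and HSP110 genes outside the 10, 1 of 9 rose in G&N embryos, Hspa4, an HSP110-type exchange factor, by 3.76 ± 0.41 (log2, edgeR adjusted p = 0.00938). In G&N-L embryos Hspa4 rose by 3.31 ± 0.55 and Hspa14 fell by 1.18 ± 0.20 (edgeR adjusted p = 0.0263 and 0.026), 1 of 8 in each direction. Among co-chaperones and exchange factors 3 of 23 rose and 2 fell in G&N embryos, with Bag1, an HSP70 exchange factor, rising by 3.73 ± 0.38 (edgeR adjusted p = 0.00803) and Bag5 by 5.96 ± 1.09 (edgeR adjusted p = 0.0276). In G&N-L embryos 1 of 23 rose and 2 fell, among them Ppid, an HSP90-binding peptidyl-prolyl isomerase, by 2.02 ± 0.20 (edgeR adjusted p = 0.00819). Of the HSF genes and HSF-binding proteins, Hsbp1 fell by 1.56 ± 0.29 in G&N and fell by 1.28 ± 0.15 in G&N-L embryos (edgeR adjusted p = 0.0286 and 0.0127), and Hsf5 fell in G&N embryos by 1.32 ± 0.31 (edgeR adjusted p = 0.0494). Hsbp1l1 had no count in the 4 early libraries and stood at 12.8 ± 0.35 CPM in late G&N and at 8.59 ± 1.45 CPM in late G&N-L embryos.

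The list of HSF1 target genes of the heat shock response leaves out the members, so Hspa1a and Hspa1b are not in it. In G&N embryos edgeR called 0 of 11 higher, against 8.18% of all genes, and 1 lower, Chordc1 by 1.43 ± 0.30 (log2, edgeR adjusted p = 0.0369). In G&N-L embryos it called 0 of 9 higher, against 5.97%, and 2 lower. These were Dnaja1 by 1.32 ± 0.24 and Ahsa1 by 0.87 ± 0.18 (edgeR adjusted p = 0.0317 and 0.0417). With so few genes tested, 0 is near these shares. By sign alone 5 were higher and 6 lower in G&N embryos, and 3 higher and 6 lower in G&N-L embryos. In G&N embryos DESeq2 called 2 of 11 higher and 3 lower, against 30.5% of all genes in either direction. In G&N-L embryos DESeq2 called 2 of 9 higher and 2 lower, against 27.9% of all genes in either direction. Of ER chaperones and genes of the unfolded protein response, 3 of 19 rose, against 8.18% of all genes, and 0 fell, against 5.47%, in G&N embryos. P4hb, a protein disulfide isomerase, was among the 3, rising by 2.88 ± 0.34 (edgeR adjusted p = 0.0109). In G&N-L embryos 2 of 18 rose, against 5.97% of all genes. Of 9 genes of mitochondrial protein quality control, Clpx rose in G&N embryos by 1.69 ± 0.33 (edgeR adjusted p = 0.0325) and Grpel1 fell in G&N-L embryos by 1.26 ± 0.25 (edgeR adjusted p = 0.0372). No small heat shock protein (of 5 and 3 tested) and no other HSP90 gene (of 2) passed in either.

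**Figure D4:**
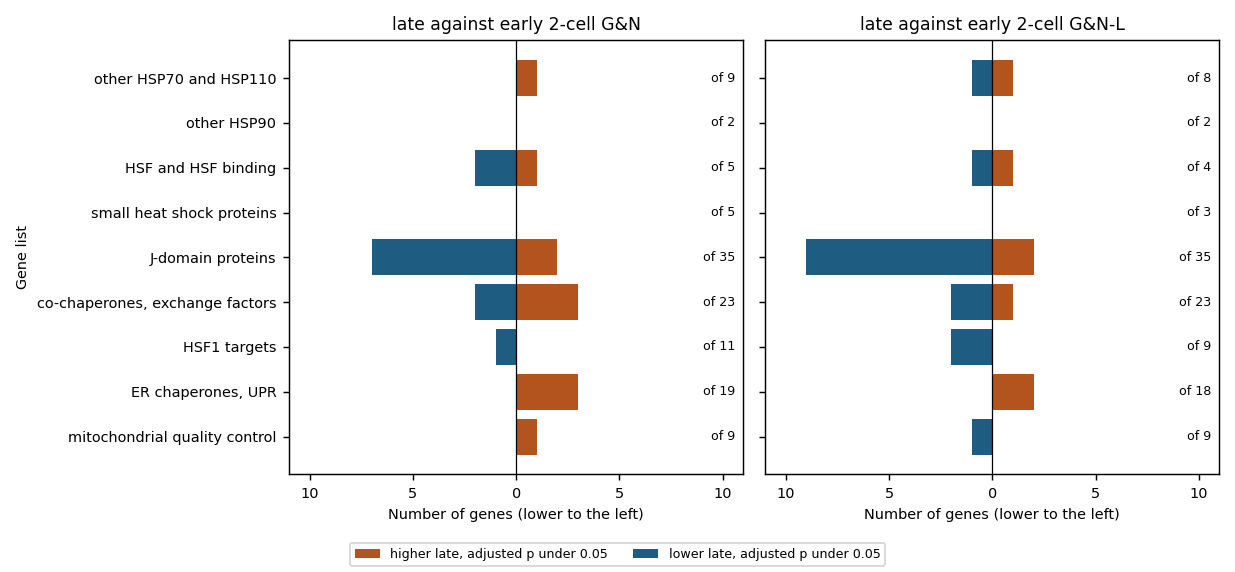
Number of genes of each list that were higher (right) or lower (left) in late than in early 2-cell embryos at an adjusted p under 0.05 (edgeR), in G&N and G&N-L embryos, with the number tested at the right. J-domain proteins have 7 and 9 of 35 lower, against 5.47% and 5.87% of all genes. No gene of the HSF1 target list, which leaves out Hspa1a and Hspa1b, is called higher in either, against 8.18% and 5.97% of all genes. With 11 and 9 genes tested, 0 is near these shares.

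In the lactate, Lac-CoA and H3K18R comparisons no gene of the lists passed an adjusted p of 0.05 with edgeR, while DESeq2 called some. Of 101 tested for late lactate it called 1 higher and 9 lower, against 1.61% and 3.19% of all genes. Of 102 tested for Lac-CoA against G&N-L it called 12 higher and 3 lower, against 3.5% and 2.69%. It called 1 higher of 104 for Lac-CoA against G&N (2.43% of all genes in either direction), 1 lower of 98 for H3K18R (0.678%) and none of 87 for early lactate (0.219%). At an unadjusted p under 0.05, 2 of 101 were higher and 19 lower in late G&N-L than G&N embryos, against 4.32% and 7.65% of all genes, with a median log2 change of -0.29 against -0.02. Trap1, the mitochondrial HSP90, stood at 2.27 ± 0.23 CPM without and 12.6 ± 2.31 CPM with lactate (log2 change -2.42 ± 0.55, edgeR adjusted p = 0.317). Bag5 was at 11.9 ± 0.20 against 52.1 ± 8.18 CPM (-2.08 ± 0.32, edgeR adjusted p = 0.311), and Hspb11, named as a small heat shock protein and known from cilia, at 30.1 ± 3.98 against 9.11 ± 1.82 CPM (1.78 ± 0.38, edgeR adjusted p = 0.313). With Lac-CoA against G&N-L, 22 of 102 were higher and 7 lower at an unadjusted p under 0.05, against 6.92% and 6.38% of all genes, with a median of 0.28 against -0.01. Dnajb11, a co-chaperone of Hspa5, was at 64.8 ± 8.39 against 18.7 ± 2.50 CPM (1.75 ± 0.28, edgeR adjusted p = 0.294), and Hsph1, the main HSP110, at 75.6 ± 9.85 against 24.6 ± 10.1 CPM (1.57 ± 0.37, edgeR adjusted p = 0.294). The corresponding counts were 2 higher and 1 lower of 87 for lactate at the early stage, against 4.52% of all genes in either direction. For Lac-CoA against G&N they were 3 higher and 3 lower of 104, where 4.1% of all genes were lower. The share of all genes that were higher is not given here, so nothing can be read from the 3 higher. In H3K18R against the label WT the counts were 0 higher and 5 lower of 98, against 6.44% of all genes in either direction. Hsf3 had 0.902 ± 0.28 CPM in H3K18R and 10.7 ± 3.38 CPM under the label WT (edgeR adjusted p = 0.734).

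By likeness of pattern, measured as Pearson's r of log2(CPM + 1) over the 14 libraries among 25041 genes, Hspa2 was nearest to Slc27a2 (r = 0.97) and Kpna4 (0.97), and Hspa1b to Klf2 (0.95). Hsp90aa1 was nearest to 2 genes annotated as processed pseudogenes, Gm12346 and Gm5844 (0.99 both). For Hsp90ab1 the nearest was Cdc37 (0.97), the co-chaperone that brings kinases to HSP90 and a gene of the lists above. Hspe1 was nearest to Mcur1 (0.97), Hspa8 to Riox2 (0.95), Hspa1a to Pwwp2a (0.94), Hspa5 to Gm4557 (0.93), Hsf1 to Gpx3 (0.92) and Hspd1 to Gm8165 (0.86). These r values share libraries, stages and depth between the points and are descriptions. Of the 3 nearest genes of each member, 19 of 30 were again among the 3 nearest on library totals, but 1 of 3 for Hspe1, Hspd1 and Hspa1a, and Mcur1 and Gm8165 were not among them. Between members r ran from -0.89 for Hsp90aa1 with Hspa2 to 0.90 for Hspa2 with Hspa1b, and Hspe1 with Hspa8 gave -0.81.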

How the data were processed

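RNA-seq was measured in 14 libraries of 5 embryos, 2 per condition. The submitters' processing notes name FastQC, Trim Galore, HISAT2 and featureCounts and the build mm39; tool versions and the settings for strand and multiple matches are not given in the sources used here. The deposited values are the authors' raw read counts for 56923 genes with no normalization, and no column was left unmapped. Groups came from the sample titles.

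The tests were run in edgeR 4.0.16 under R 4.3.3 (filterByExpr, TMM, quasi-likelihood test, two-sided, Benjamini-Hochberg adjustment over all genes tested, threshold 0.05), each comparison on its own 4 libraries and the interaction of stage and lactate on 8. Standard errors are the log2 fold change divided by the square root of F. Levels are CPM on TMM factors of the 14 libraries. DESeq2 1.42.0 and other settings were alternatives. The fits were also run on simulated counts with the same dispersion for all genes. That cannot show how they behave at the spread of these libraries. Replicates were checked for duplicates: counts of a pair differed by more than sampling noise (chi-square per degree of freedom 47.8 to 195, r of 0.902 to 0.958). Named genes were all 10 members, up to 3 genes per list and comparison with the smallest p, and the 3 genes most like each member; rows named as copies of members were also in the rule and are not reported here. Promoters are the 250 bases before the canonical start (GRCm39, GENCODE vM39), searched by exact letters. The members and lists were chosen with earlier results of these data known.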

Additional observations from a re-analysis of the deposited data

Results flagged for a closer look

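In 5 of the genes the libraries without lactate lay on one side of the libraries with lactate at the early and on the other side at the late 2-cell stage, which is what brought them here. The same held for 4.98% of all 22287 genes tested for the difference between the stages. Among genes tested in both lactate comparisons, which leaves out Hspa1a, it held for 4 of 8 members and for 6.35% of 15458 genes. The early groups rest on the sample titles, and by the treatment labels they would differ in NMN. The late minus the early change without lactate (log2, edgeR, 8 libraries) was -3.34 for Hspa2, -5.81 for Hspa1a, 1.30 for Hsf1, 0.92 for Hspd1 and 0.71 for Hspe1. The adjusted p values of edgeR were 0.500, 0.660, 0.639, 0.650 and 0.650. DESeq2 called Hspa2 (adjusted p = 0.000813) and, among the other members, Hspa1b (adjusted p = 0.0296), whose early groups overlapped. The value of Hspa1a rests on early counts of 0 and 0 against 5 and 1 and is no fold that can be read. Hspa2 stayed between -4.02 and -2.87 with each library left out.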

How the results depend on the processing

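Over 77 log2 values of members, 533 values under other settings (DESeq2, its size factors within edgeR, library totals, no filter, at least 10 counts in every library, the replicate block, all 14 libraries in one fit) gave 504 on the same side of the threshold with the same sign, 18 newly past it, 6 no longer past it and 5 reversed. The 348 values with 1 library left out gave 308, 22 no longer past it and 18 reversed. The reversals on other settings were Hspa8 early without lactate at -0.007 and Lac-CoA against G&N for Hspd1 at -0.0609 and Hspe1 at -0.0662, all with the 14 libraries, and Hsf1 at 0.0462 and Hspe1 at 0.0492 for stage in G&N on library totals. With a library left out the ranges that crossed 0 were, for stage, Hsf1 in G&N -0.64 to 0.27, Hspa8 in G&N -0.47 to 1.17 and Hspa1b in G&N-L -0.13 to 8.61, the latter against a count of 0; for lactate, Hspa5 early -0.20 to 0.14 and late -0.77 to 0.16, and Hspa8 early -0.40 to 1.15; for Lac-CoA against G&N, Hspa1a -0.72 to 0.048, Hspa2 -0.31 to 0.43, Hspd1 -0.0859 to 0.115 and Hspe1 -0.10 to 0.10; for H3K18R, Hspa1b -0.65 to 1.34 and Hspd1 -0.18 to 0.32; and for the interaction Hspa5 -0.70 to 0.18. None of these values was past the threshold in the reported fits. The cause was not tested.

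DESeq2 called 3 for late lactate and 3 for Lac-CoA where edgeR called 0, 6 for stage in G&N where edgeR called 3, and 2 for the interaction where edgeR called 0; no filter called 1 for late lactate (Hspa2) and 2 for the interaction. For stage in G&N-L, where edgeR called 5, the fit of all 14 libraries called 3. Over all genes, DESeq2 called 5937 for stage in G&N and 5182 in G&N-L embryos against 2654 and 2203 with edgeR, and no filter called 5060 in G&N embryos. Left-out libraries gave 0 to 3 calls for stage in G&N and 1 for stage in G&N-L. The lone library of a group was then assumed to vary like the other group.

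Whether replicate numbers pair the libraries is not said in the labels. The correlation of same-numbered deviations was -0.091 to 0.005. It showed no pairing, but with 2 pairs per comparison it cannot exclude one. The replicate block called 2 members for stage in G&N-L (Hsp90aa1 and Hsp90ab1) against 5 without it, 1391 against 2203 of all genes, and changed the number of members called in no other comparison. With 2 libraries per condition the tests are limited by the spread between them, and for Hspa1a and the early Hspa1b values also by low counts.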
